A study of Mus musculus with 6 samples.

Results

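The 10 genes described here encode the myostatin, activin and follistatin axis of fetal mouse leg muscle. They were chosen by name, and all 10 were found by Ensembl identifier among the 56262 genes of the count table. They comprise the ligands Mstn, Gdf11 and Inhba, the follistatin family genes Fst, Fstl1 and Fstl3, the type II receptors Acvr2a and Acvr2b, and the type I receptors Tgfbr1 and Acvr1b. RNA-seq counts were compared between 3 wild-type (WT) and 3 SYISL knockout (KO) samples of leg muscle taken at embryonic day 18.5. SYISL, transcribed across part of a Synpo2 intron, is a long noncoding RNA, and the KO fetuses are labelled as lacking it. The fetuses came from matings within each genotype, so the effects of fetal genotype, dam and litter cannot be told apart. Nothing in the sources used here states how many litters there were, so p-values measure the spread between these samples. The level of SYISL itself was not analysed here, and the genotype labels were taken as given.

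Myostatin is a secreted factor of the TGF-β family that is made by skeletal muscle and restrains its growth. Myostatin, GDF11 and the activins bind a type II receptor, which recruits and activates a type I receptor, and the receptor complex then phosphorylates SMAD2 and SMAD3. Follistatin binds these ligands outside the cell and keeps them from their receptors, and a loss of myostatin or an excess of follistatin is known to enlarge muscle.

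The depth was between 82054811 and 102233181 counts per sample. The 10 myofibre markers, among them Acta1, Ckm and Myh8, were detected in all samples, with a summed level of 20182 to 22525 CPM, that is, counts scaled to a common library total, in WT and 42444 to 51950 CPM in KO. Of these markers 9 were differentially expressed genes (DEGs), all higher in KO, and Myh3 was the exception. To be a DEG, a gene had to change by more than 1.5-fold with an adjusted p under 0.05 in the edgeR quasi-likelihood test. The 10 keratinocyte markers were all DEGs and lower in KO, with a summed level of 16706 to 25011 CPM in WT and 909 to 1024 CPM in KO. The 6 red blood cell markers were all DEGs and lower in KO, and the 5 fat markers were all DEGs and higher in KO. Macrophage markers included 4 DEGs of 6, all higher in KO. The 7 markers listed for myogenic progenitors, which also include the differentiation and fusion genes Myog, Mymk and Mymx, did not follow the myofibre markers. They held 1 DEG, Pax3, lower in KO, and their median log2 fold change was -0.22. Their summed level was 325 to 347 CPM in WT and 306 to 323 CPM in KO. Pax3, Myod1, Myog and Mymx were lower in KO at an adjusted p under 0.05, and Mymk was higher (0.22). Pax7 (-0.13, adjusted p of 0.0763, edgeR) and Myf5 (-0.04, adjusted p of 0.791) did not pass the test. The part of these cell types in the results was not tested. In RNA from whole tissue, fewer cells of a type and less RNA per cell cannot be told apart.

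Of the 10 genes, 4 were higher in KO at an adjusted p under 0.05, namely Mstn, Inhba, Fst and Fstl1. Gdf11 and Acvr1b were lower in KO, and Fstl3, Acvr2a, Acvr2b and Tgfbr1 did not pass the test. The 6 genes that passed make 60.0% of the axis, whereas 45.0% of the 22071 genes tested passed. Over all genes, 21.9% passed with a higher level in KO and 23.1% with a lower one. The values of WT and KO did not overlap for the same 6 genes, and they did not overlap for 55.9% of all genes tested. None of the 10 genes reached a fold change of 1.5, so 0 were DEGs in edgeR, DESeq2 and limma-voom, and each of these tools gave 6 genes at an unadjusted p under 0.05. The share of all genes at an unadjusted p is not given here. Counts at that threshold, for the axis and for the lists below, therefore have no background beside them. Over all genes tested, 8.31% were DEGs higher in KO and 8.39% DEGs lower in KO (edgeR). The median log2 fold change was 0.09 over the 10 genes and -0.0041 over all genes tested. Without KO replicate 3, only Mstn, Inhba and Fstl1 passed, which were 3 genes. With upper-quartile factors 4 genes passed, all of them higher in KO.

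**Figure D1:**
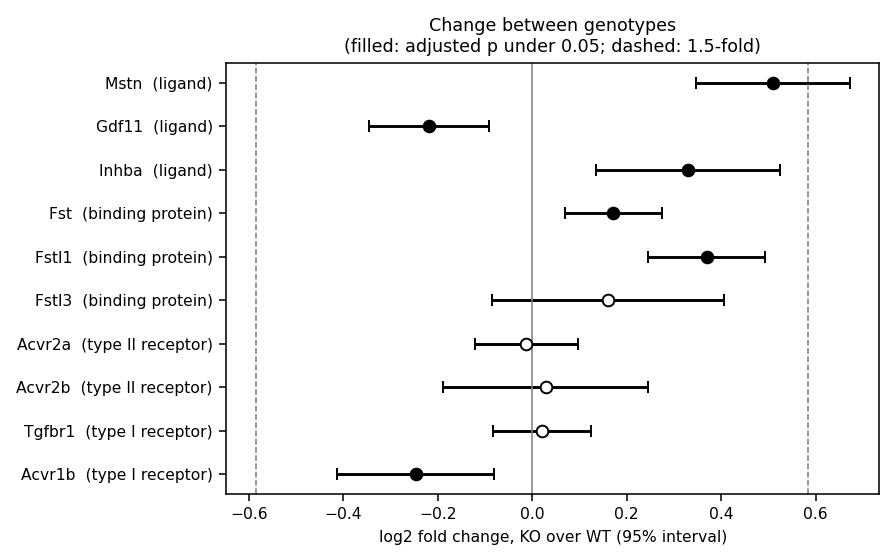
Log2 fold change of KO over WT for each of the 10 genes, with the 95% interval of the edgeR fit (3 WT and 3 KO samples). Filled points passed an adjusted p under 0.05, dashed lines mark a fold change of 1.5, and no point lies beyond them.

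Levels of different genes can be compared per exon length. On the scale of CPM per kb of exon in WT, Fstl1 stood far above the rest at 236 ± 8.21 (SD, n = 3). It was followed by Mstn at 12.1 ± 0.986 and Tgfbr1 at 11.3 ± 0.597, whose sample ranges overlapped. Next came Acvr1b at 9.05 ± 1.07, Acvr2a at 7.91 ± 0.255, Fst at 6.85 ± 0.233 and Gdf11 at 5.89 ± 0.126, and none of these overlapped its neighbour. Inhba at 2.55 ± 0.302, Fstl3 at 0.934 ± 0.109 and Acvr2b at 0.740 ± 0.0603 were the lowest. Mstn was thus the most abundant of the ligand genes here, and Acvr2a by far the more abundant of the type II receptors. In KO the level of Mstn was 17.2 ± 1.39 CPM per kb and its samples no longer overlapped those of Tgfbr1 at 11.5 ± 0.338. In KO, Acvr2a at 7.84 ± 0.423, Fst at 7.72 ± 0.272 and Acvr1b at 7.62 ± 0.123 overlapped as neighbours. When the longest transcript was used in place of all exons, 5 of the 10 genes changed place in WT, and Tgfbr1 then stood above Mstn and Fst above Acvr1b.

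**Figure D2:**
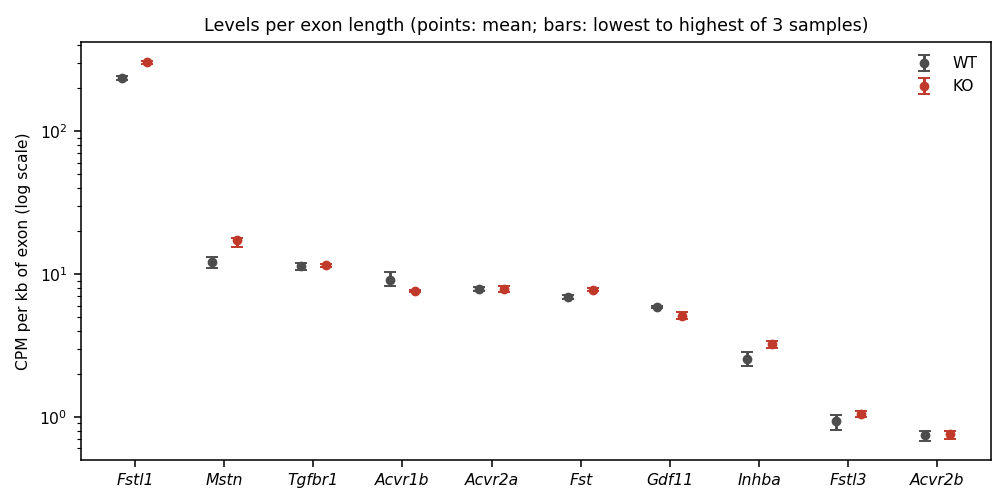
Levels of the 10 genes in CPM per kb of exon on a log axis, ordered by the WT mean, for 3 WT and 3 KO samples. Points are means and bars run from the lowest to the highest sample, with Fstl1 at 236 in WT and Acvr2b lowest at 0.740.

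Mstn (mm10, chr1:53061640-53068079, plus strand) encodes myostatin. Its level in the WT samples was 35.3, 30.0 and 32.6 CPM, and in the KO samples 42.1, 48.7 and 48.6 CPM. Every KO sample lay above every WT sample, and KO replicate 1 was the lowest of the KO samples. Mstn rose by a log2 fold change of 0.51 ± 0.072 (SE), or 1.42-fold with a 95% interval of 1.27 to 1.59, at an adjusted p of 3.75e-04 (edgeR). It passed the test in all 14 alternative fits, with log2 fold changes from 0.44 to 0.58. KO replicate 1 also had the lowest summed level of myofibre markers among the KO samples.

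Gdf11 (mm10, chr10:128882295-128891718, minus strand) encodes the closest relative of myostatin, which patterns the axial skeleton. WT samples held 23.9, 23.4 and 24.5 CPM and KO samples 22.01, 19.7 and 20.004 CPM. All KO samples were below all WT samples. The log2 fold change was -0.22 ± 0.056 (SE) with an adjusted p of 0.0111 (edgeR). Without KO replicate 3 it was -0.19 at an adjusted p of 0.0616, and with upper-quartile factors -0.15 at an adjusted p of 0.0698, so the call was lost in both.

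Inhba (mm10, chr13:16011851-16031621, plus strand) encodes the βA subunit, and a pair of these subunits forms activin A. It was measured at 18.3, 14.4 and 16.2 CPM in WT and at 21.6, 19.3 and 20.7 CPM in KO. The groups did not overlap, with WT replicate 2 lowest. Inhba rose by a log2 fold change of 0.33 ± 0.086 (SE) at an adjusted p of 0.0119 (edgeR), and it passed in all 14 alternatives.

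Upstream sequences are shown for the ligand genes, since Mstn and Inhba rose while Gdf11 fell. RefSeq (GRCm38.p6) gave start sites for 9 of the 10 genes, with no entry for Fst, and the 250 bases before the start site were searched for CANNTG. This is the E-box core, which is read by helix-loop-helix factors such as MyoD and reads alike on both strands, and the capitals mark it below.
Mstn, chr1:53061390-53061639, plus strand: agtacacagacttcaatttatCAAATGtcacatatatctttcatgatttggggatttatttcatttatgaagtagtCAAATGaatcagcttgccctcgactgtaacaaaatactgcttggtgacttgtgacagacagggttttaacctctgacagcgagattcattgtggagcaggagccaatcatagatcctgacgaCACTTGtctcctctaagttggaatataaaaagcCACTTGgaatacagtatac
Gdf11, chr10:128891719-128891968, minus strand: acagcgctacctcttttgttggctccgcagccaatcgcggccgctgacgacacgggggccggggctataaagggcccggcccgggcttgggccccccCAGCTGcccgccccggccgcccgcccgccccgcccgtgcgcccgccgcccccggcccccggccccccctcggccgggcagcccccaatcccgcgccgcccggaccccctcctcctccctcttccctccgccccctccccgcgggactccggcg
Inhba, chr13:16011601-16011850, plus strand: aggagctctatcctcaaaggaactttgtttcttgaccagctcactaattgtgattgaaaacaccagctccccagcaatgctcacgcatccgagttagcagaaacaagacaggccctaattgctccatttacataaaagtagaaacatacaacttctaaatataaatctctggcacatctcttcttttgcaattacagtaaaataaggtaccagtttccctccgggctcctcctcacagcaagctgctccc

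The Mstn sequence held 4 matches of CANNTG, Gdf11 1 and Inhba 0. Of all 32851 promoter windows of this length, 66.2% held at least 1 match. CAGAC or its reverse complement GTCTG, the short element bound by SMAD3 and SMAD4, was found 2 times upstream of Mstn and 0 times upstream of Gdf11 and Inhba, and 42.2% of all windows held it. These are letter matches in short windows and were not tested against the change of any gene. The G and C content of the window was 38.4% for Mstn, 81.2% for Gdf11 and 43.2% for Inhba.

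The follistatin family genes encode secreted proteins with a shared cysteine-rich domain. Fst (mm10, chr13:114452290-114458951, minus strand) encodes follistatin, the main extracellular inhibitor of activin and myostatin. WT samples had 30.8, 32.7 and 30.8 CPM and KO samples 34.7, 34.7 and 36.9 CPM. The KO samples were all higher, by a small margin. Fst rose by a log2 fold change of 0.17 ± 0.046 (SE), which is 1.13-fold, at an adjusted p of 0.0129 (edgeR). The call was lost when library size alone was used (0.10, adjusted p of 0.0956), without KO replicate 3 (0.15, adjusted p of 0.0564) and without WT replicate 3 (0.16, adjusted p of 0.0570).

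Fstl1 (mm10, chr16:37776873-37836514, plus strand) encodes follistatin-like 1, a glycoprotein secreted mainly by mesenchymal cells. It was measured at 1203, 1128 and 1141 CPM in WT and at 1457, 1510 and 1518 CPM in KO. No KO sample overlapped a WT sample. Fstl1 rose by a log2 fold change of 0.37 ± 0.055 (SE), or 1.29-fold, at an adjusted p of 4.85e-04 (edgeR), and passed in all 14 alternatives. Of the 8 fibroblast markers 0 were DEGs in edgeR, DESeq2 and limma-voom. At an adjusted p under 0.05, however, 7 passed in edgeR and 8 in both DESeq2 and limma-voom. An unadjusted p was under 0.05 for 7 in edgeR, and their median log2 fold change was 0.28. Their summed level was 32634 to 35312 CPM in WT and 39827 to 40767 CPM in KO. The part of fibroblast RNA in the rise of Fstl1 was not tested.

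Fstl3 (mm10, chr10:79777272-79782630, plus strand) encodes a second activin-binding and myostatin-binding protein. Counts were low, with 1.99, 2.505 and 2.36 CPM in WT and 2.68, 2.42 and 2.55 CPM in KO. The groups overlapped. The log2 fold change of 0.16 had a 95% interval of -0.08 to 0.41 and an adjusted p of 0.264 (edgeR). It was 0.069 without WT replicate 1 and 0.093 with library size alone. Its exons share 1157 bases with Prss57 on the opposite strand, which held 3 to 7 counts per sample.

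**Figure D3:**
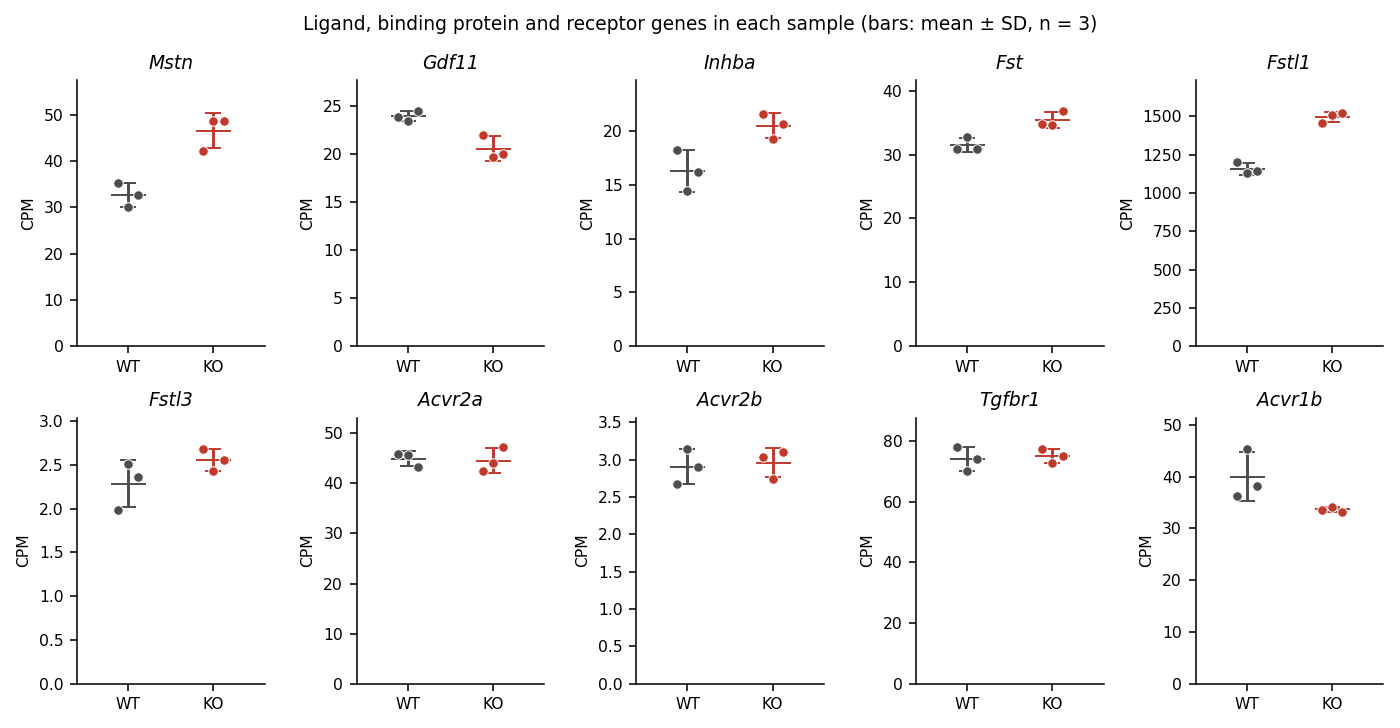
Level of each of the 10 genes in CPM in every WT and KO sample, with a linear axis from 0 for each gene. Horizontal bars are means and error bars SDs of 3 samples, and the Mstn samples run from 30.0 to 35.3 CPM in WT and from 42.1 to 48.7 CPM in KO.

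The type II receptors bind the ligand first. Acvr2a (mm10, chr2:48814109-48903269, plus strand), a receptor for activin and myostatin, held 45.9, 45.7 and 43.3 CPM in WT and 42.5, 44.1 and 47.2 CPM in KO. The groups overlapped. Its log2 fold change of -0.01 had a 95% interval of -0.12 to 0.10 (adjusted p of 0.861, edgeR), or 0.920-fold to 1.07-fold. The exons of Acvr2a share 446 bases with Orc4 on the opposite strand, which held 3586 to 4503 counts per sample, and the strand setting of the counting was not stated.

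Acvr2b (mm10, chr9:119402118-119434995, plus strand) encodes the type II receptor that myostatin binds most strongly. It held 2.67, 3.15 and 2.90 CPM in WT and 3.04, 2.74 and 3.104 CPM in KO, again with overlap. The log2 fold change was 0.03 with a 95% interval of -0.19 to 0.25 (adjusted p of 0.837, edgeR). Per exon length, Acvr2a counts were 11.9, 10.03 and 10.3 times those of Acvr2b in WT and 9.65, 11.1 and 10.5 times in KO. The log2 ratio differed by -0.04 between genotypes (two-sided exact permutation test, p = 0.7, smallest possible p = 0.1), and the sign turned without WT replicate 1 or KO replicate 1.

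The type I receptors carry the signal to SMAD2 and SMAD3. Tgfbr1 (mm10, chr4:47353222-47414931, plus strand), known as ALK5, serves TGF-β and also myostatin. It was measured at 78.0, 70.2 and 74.1 CPM in WT and at 77.4, 73.0 and 75.2 CPM in KO, and the ranges overlapped. The log2 fold change was 0.02, with a 95% interval of -0.08 to 0.12 and an adjusted p of 0.757 (edgeR).

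Acvr1b (mm10, chr15:101174067-101213684, plus strand), known as ALK4, is the main type I receptor of activin. WT samples held 36.3, 45.3 and 38.3 CPM and KO samples 33.6, 34.2 and 33.2 CPM. WT replicate 2 stood above the other samples, and the KO samples were all lower than the WT samples. Acvr1b fell by a log2 fold change of -0.25 ± 0.074 (SE) at an adjusted p of 0.0219 (edgeR). WT replicate 2 also had the highest summed level of keratinocyte markers, 25011 CPM, and without it the log2 fold change of Acvr1b was -0.15 at an adjusted p of 0.0305. The call was lost without KO replicate 1 (adjusted p of 0.0508), without KO replicate 3 (0.0814) and with upper-quartile factors (0.0536). The part of epidermal RNA in this difference was not tested.

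Ratios within a sample do not depend on scaling between libraries. For every 10000 counts of the 10 myofibre markers, the WT samples had 15.7, 14.9 and 14.8 Mstn counts, and the KO samples had 9.93, 9.37 and 9.46. Mstn was therefore higher in KO in CPM and lower in KO per myofibre marker count. The log2 ratio differed by -0.66 between KO and WT, a ratio of 0.634 (two-sided exact permutation test, p = 0.1, the smallest p this design allows). Of the 10 myofibre markers, 9 had a larger log2 fold change than Mstn, from Mb at 0.63 to Myh8 at 1.59, and only Myh3, the embryonic myosin heavy chain, at -0.04, had a smaller one.

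The Fst level relative to Mstn, both per exon length, was 0.514, 0.642 and 0.557 in WT and 0.486, 0.420 and 0.447 in KO. All KO ratios lay below all WT ratios. With the longest transcript as the length the ratios were 1.57 times higher in every sample, from 0.808 to 1.01 in WT and from 0.659 to 0.763 in KO, and their difference between genotypes was the same. The log2 ratio differed by -0.34 (two-sided exact permutation test, p = 0.1, the smallest possible). Tgfbr1 over Acvr1b was 1.45, 1.05 and 1.31 in WT and 1.56, 1.44 and 1.53 in KO. These ranges overlapped, the log2 ratio differed by 0.26 (two-sided exact permutation test, p = 0.2), and without WT replicate 2 it differed by 0.13.

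**Figure D4:**
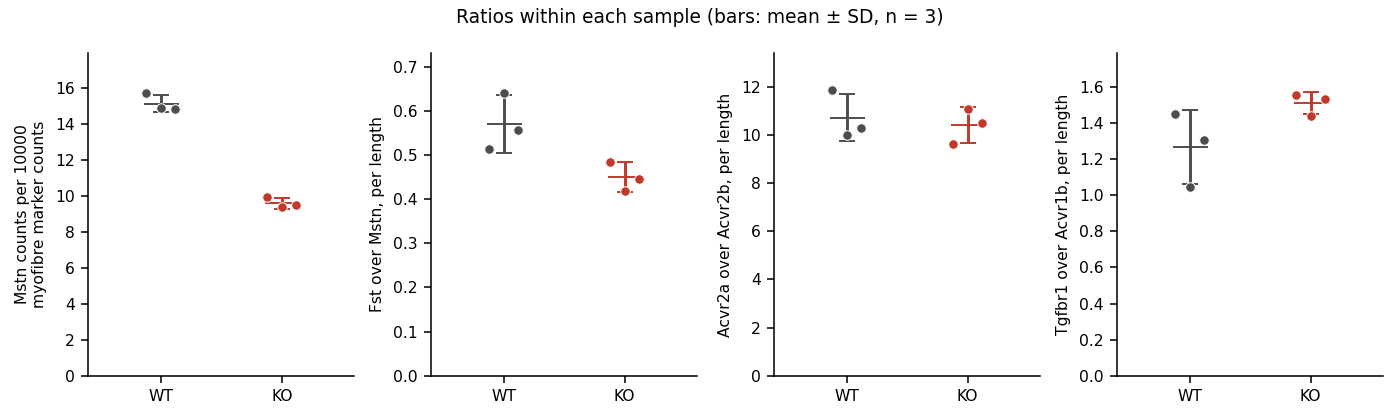
Ratios of counts within each WT and KO sample, with Mstn per 10000 myofibre marker counts at the left and the Fst to Mstn, Acvr2a to Acvr2b and Tgfbr1 to Acvr1b ratios per exon length to its right. Horizontal bars are means and error bars SDs of 3 samples, and the Mstn ratio lies between 14.8 and 15.7 in WT and between 9.37 and 9.93 in KO.

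The other genes of the pathway were taken from 8 lists by role. Together they held 78 genes, of which 72 passed the filter on low counts. Of the 72 genes, 7 were DEGs higher in KO, beside 8.31% of all genes tested, and 6 were DEGs lower in KO, beside 8.39%. At an adjusted p alone 30 were higher, beside 21.9% of all genes tested, and 13 lower, beside 23.1%. The median log2 fold change was 0.10.

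Among the other activin and TGF-β ligands, Nodal was the 1 DEG of 7 tested genes. It is a ligand of the early embryo, and its level was low, at 0.180, 0.133 and 0.171 CPM in WT and 0.331, 0.294 and 0.339 CPM in KO, with a log2 fold change of 0.98 (adjusted p of 0.00593, edgeR). The lowest value in the list, Gdf3 at -0.65, did not pass the test and was -0.31 without KO replicate 3. Of the 9 BMP-type ligands, Bmp6 rose by 0.75 on the log2 scale, and Bmp2, Gdf5 and Gdf6 fell with log2 fold changes of -1.12, -0.79 and -0.83. Bmp2, which drives bone formation, held 24.4, 25.9 and 23.3 CPM in WT and 11.3, 11.1 and 11.4 CPM in KO. Gdf5 and Gdf6 mark forming joints, and the call of Gdf6 was lost without KO replicate 3 (-0.74, adjusted p of 0.0685). Of the 6 cartilage markers 3 were DEGs lower in KO and 1 was higher.

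Of the 10 other receptors tested, 3 were DEGs and all were higher in KO. Acvr1c encodes ALK7, a type I receptor for activins and nodal that is abundant in fat. Its level was 1.06, 0.508 and 1.08 CPM in WT and 3.50, 4.03 and 3.89 CPM in KO, and its log2 fold change of 2.09 ± 0.215 (SE) was the largest of the pathway genes tested (adjusted p of 4.70e-05, edgeR). The 5 fat markers summed to 105 to 137 CPM in WT and 339 to 401 CPM in KO, and WT replicate 2 was lowest both in Acvr1c and in this sum. Amhr2, the type II receptor of anti-Müllerian hormone, rose by 1.01 on the log2 scale, and Tgfbr3, the co-receptor betaglycan that also binds inhibin, by 0.60. Tgfbr3 fell under the fold threshold without WT replicate 1 (0.56) and with library size alone (0.53). The lowest value of the list was Bmpr2 at -0.03, which did not pass.

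Of 10 secreted antagonists tested, 1 was a DEG. The highest value was that of Grem1, an inhibitor of BMPs, which rose by 0.33 on the log2 scale without reaching a fold change of 1.5. Wfikkn1, which encodes a protein that binds myostatin and GDF11, fell with a log2 fold change of -0.66, from 1.035, 1.041 and 1.042 CPM in WT to 0.587, 0.588 and 0.792 CPM in KO. Without KO replicate 1 its log2 fold change was -0.58, just under the fold threshold. Among 10 genes of processing and storage, Tll2 was the 1 DEG. It encodes a tolloid-like protease, a class of enzymes that frees myostatin from its latent complex. It was at 2.27, 2.40 and 2.198 CPM in WT and at 0.896, 0.734 and 0.792 CPM in KO, with a log2 fold change of -1.50 ± 0.117 (SE) (adjusted p of 7.39e-06, edgeR). The related Tll1 was the highest of that list at 0.47 and passed the test without reaching a fold change of 1.5.

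Of the 15 SMADs and their regulators 0 were DEGs, while 3 were higher and 3 lower at an adjusted p under 0.05 in edgeR. DESeq2 and limma-voom also gave 0 DEGs, and 8 of the 15 genes had an unadjusted p under 0.05 in edgeR. The values ran from Zfyve9, an adaptor that presents SMADs to the receptor, at -0.49 to Smad7, an inhibitory SMAD, at 0.40. The list median was -0.02.

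Of the 9 genes taken as targets of SMAD2 and SMAD3, 2 were DEGs higher in KO and 1 was lower. Tgfbi, a matrix protein, held 139, 123 and 133 CPM in WT and 228, 242 and 238 CPM in KO, and rose by 0.84 on the log2 scale, and Ccn2, a matricellular growth factor, rose by 0.83. KO replicate 1 was the lowest KO sample for both. Cdkn2b, an inhibitor of the cell cycle, fell with a log2 fold change of -1.29. Of the list 5 genes were higher and 1 lower at an adjusted p under 0.05, and the median was 0.28. Smad7 and Skil belong to this list and to the one before. Of 5 targets of BMP signalling 0 were DEGs in edgeR, DESeq2 and limma-voom, and 4 had an unadjusted p under 0.05 in each, with 3 higher and 1 lower at an adjusted p under 0.05 in edgeR, from Id1 at -0.14 to Smad6 at 0.37. The call of Id1 at an adjusted p under 0.05 was lost in 9 of 14 alternatives. Smad6 also belongs to the list of SMADs and their regulators.

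**Figure D5:**
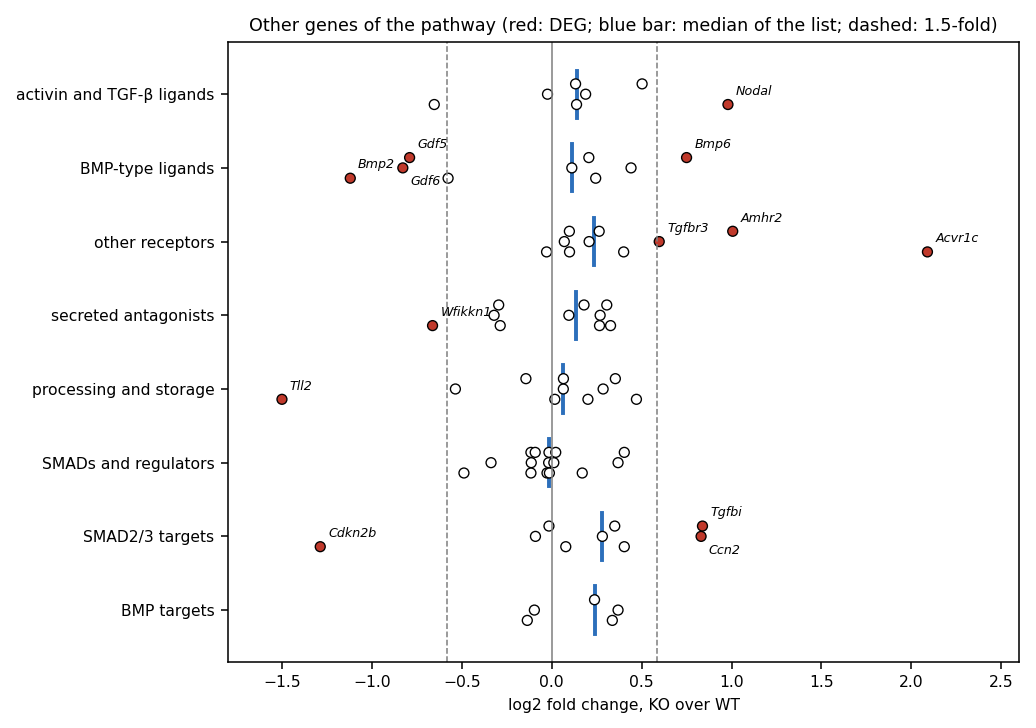
Log2 fold change of KO over WT for each of the other pathway genes tested, by list, in 3 WT and 3 KO samples. Red points are DEGs and carry their names, blue bars are list medians and dashed lines mark a fold change of 1.5. Acvr1c lies farthest to the right at 2.09 and Tll2 farthest to the left at -1.50.

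Genes with the pattern closest to each of the 10 genes were sought by Euclidean distance over the log2 CPM of the 6 samples, centred for each gene, among genes with a mean of at least 5 CPM. The closest to Mstn, of 12370 genes, were Cacna2d1 at a distance of 0.0329, Insr at 0.0503, the antisense gene Gm11266 at 0.0640, Prkag3 at 0.0655 and Phtf2 at 0.0784. The closest gene was Rad54l for Gdf11 (0.0353), Zfp40 for Inhba (0.115), Peli2 for Fst (0.0405), Gas6 for Fstl1 (0.0304) and Tmco6 for Fstl3 (0.0822). For the receptors it was Slc35a1 for Acvr2a (0.0160), Med26 for Acvr2b (0.0409), Cdon for Tgfbr1 (0.0264) and Scpep1 for Acvr1b (0.0510). These distances describe 6 samples and carry no test.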

How the data were processed

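Leg muscle RNA-seq of 3 WT and 3 KO samples was used. The authors trimmed 150 bp paired-end reads with Trim Galore 0.6.6, mapped them to mm10 with HISAT2 2.2.1 and counted them per gene with featureCounts 2.0.1. The authors deposited these as raw counts, and the annotation and strand setting are not given in the sources used here. Symbols and positions came from GENCODE M21, matched by Ensembl identifier without its version for 55141 of 56262 genes. Counts were tested in R 4.3.3 with edgeR 4.0.16 (filterByExpr, TMM, quasi-likelihood F-test, genotype alone) over 22071 genes, with Benjamini-Hochberg adjustment. CPM uses TMM-scaled totals, and log2 CPM a prior count of 2. DESeq2 1.42.0 and limma 3.58.1 (voom), other scalings, filters and thresholds, a replicate block and leaving out each sample were alternatives. Ratios were compared by exact permutation over samples. The members and lists were chosen with earlier results of these data known. Named are the 10 genes, the DEGs and the extremes of each pathway list, and the closest patterns. Some pathway genes are not reported here and were left out of the lists. The tests were checked on simulated data with 200 changed genes, whereas 9936 genes passed the adjusted p here. Such data do not address the scaling between libraries. This check first missed its criterion, set over all changed genes, and the criterion was then limited to genes of at least 1 CPM. It therefore does not cover lower levels such as those of Nodal and Gdf3. The limit applied to the level pooled over all samples, so the DEGs Gdf5, Cdkn2b and Wfikkn1 also fell under it. Their means were 1.21, 1.37 and 1.04 CPM in WT and 0.701, 0.563 and 0.655 CPM in KO.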

Additional observations from a re-analysis of the deposited data

How the results depend on the processing

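The directions of Mstn, Gdf11, Inhba, Fst, Fstl1, Fstl3 and Acvr1b held in all 14 alternative fits. The log2 fold change changed sign for Acvr2a with upper-quartile factors (0.056) and over the leave-one-out settings (-0.048 to 0.027), for Acvr2b with library size only (-0.039) and over the leave-one-out settings (-0.029 to 0.086), for Tgfbr1 with library size only (-0.048) and over the leave-one-out settings (-0.018 to 0.057), and for Bmpr2 with upper-quartile factors (0.039). None of these passed the test in any of these settings, and the cause was not tested.

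The count of genes of the axis was 0 DEGs, and 6 at an adjusted p alone. Leaving out each sample gave 3 to 6 genes at an adjusted p alone. Over all genes 3687 DEGs became 9936 at an adjusted p alone and 2043 at a fold change over 2. The 13 pathway DEGs became 43 and 5 with these thresholds. The Acvr2a to Acvr2b log2 ratio ran from -0.089 to 0.033 over the leave-one-out settings. The Mstn to myofibre log2 ratio was -0.72 without Myh3 and Myh8 among the markers. That setting leaves out Myh3 (-0.04), the only marker with a smaller log2 fold change than Mstn. It also leaves out Myh8 (1.59), the marker with the largest one, so the ratio depends on the markers chosen. Exon length does not enter this ratio, so the longest transcript leaves it unchanged. For the order of levels per length, the longest transcript moved 5 genes.

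Replicate numbers gave no sign of pairing, as deviations of same-numbered samples correlated at -0.20, -0.13 and 0.05. With 3 samples per group these values cannot show that the samples were unpaired, and the labels do not say. With a replicate block 3521 genes were DEGs, 13 of them pathway genes, 0 of the 10 genes were DEGs and 6 passed the adjusted p. At a median shift of 0.07 and -0.07 for upper-quartile factors and library size alone, scaling alone moved small log2 fold changes by this amount. Low counts limit the precision for Fstl3 and Acvr2b.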
